A study of Mus musculus with 7 samples.

Results

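Cadherins, Epcam and claudins are the surface proteins with which epithelial cells hold on to each other. The 9 genes described here are the cadherins Cdh1, Cdh2, Cdh3 and Cdh11, the adhesion molecule Epcam, and the claudins Cldn3, Cldn4, Cldn6 and Cldn7. They were taken by symbol, each symbol matched 1 Ensembl gene, and they are 9 of the 29267 genes measured. All 9 had reads in every library, and all passed the filter on low values in every comparison.

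The data are 7 RNA libraries, each from a different kind of mouse cell, so there are no replicates. OG2 mouse embryonic fibroblasts (MEFs), which carry green fluorescent protein under control of the Oct4 gene (Oct4GFP), were infected with retroviruses for Oct4, Sox2, Klf4 and c-Myc. They were then grown in mES medium (serum, LIF and vitamin C) or in 5C medium (DMEM/F12 with N2, bFGF, LIF, vitamin C and β-mercaptoethanol, without serum). On day 15 each culture was sorted by FACS into cells with the reporter on (mES-Oct4GFP+, 5C-Oct4GFP+) and off (mES-Oct4GFP-, 5C-Oct4GFP-). 5C-Oct4GFP+ cells were also carried through 20 passages in naive medium (LIF with inhibitors of MEK and GSK3) or in primed medium (bFGF and activin A at first, CHIR99021 and IWR1 later), which gave 5C-Oct4GFP+ (naive) and 5C-Oct4GFP+ (primed). R1 ESCs-primed, the library of reference, came from R1 mouse embryonic stem cells put into the primed state on MEF feeder cells and also passaged 20 times. Every library but that of R1 thus came from fibroblasts with the 4 retroviruses, and no uninfected MEFs were analysed here. An Oct4GFP- fraction holds whatever cells of a dish had not switched the reporter on, and is not a single cell type. The study asked how the medium shapes the epithelial and mesenchymal character of cells during reprogramming and which pluripotent state results.

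The unit is TPM, a read level scaled for transcript length and library depth that can be compared between genes of a library. The libraries held between 6108252 and 11496615 estimated reads, and for a gene of median length a single read stood for 0.0795 to 0.152 TPM. Each level has an exact 95% Clopper-Pearson interval from its reads. Such an interval covers the sampling of reads only, since PCR copies are not independent molecules and the spread between cultures was not measured. No difference therefore carries a p-value. A gene was counted as higher or lower where log2(TPM + 1) differed by at least 2-fold and its TPM reached 1 in either library. On this scale the change of a gene with a low level is understated.

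Classical cadherins bind the same cadherin on the neighbouring cell and are anchored to actin through catenins at the adherens junction. Cdh1 (E-cadherin) marks epithelia and pluripotent cells, while Cdh2 (N-cadherin) and Cdh11 (OB-cadherin) are typical of mesenchymal cells, and the exchange of Cdh1 for Cdh2 is the textbook sign of an epithelial-mesenchymal transition. Claudins form the strands of the tight junction and decide how leaky it is, and Epcam is an epithelial membrane protein that holds claudins, above all Cldn7, at the membrane. Fibroblasts have to gain Cdh1 and Epcam to become induced pluripotent cells.

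The 250 bases upstream of the start site were read for the members that the RefSeq promoter table (GRCm38.p6) holds. It had 6 windows for 5 of the genes, Cldn3, Cldn4, Cldn6, Cldn7 and Epcam, and none for Cdh1, Cdh2, Cdh3 and Cdh11. The windows were searched on both strands for the E-box CACCTG, the letters that Snai and Zeb repressors are known to bind, and for the GC box GGGCGG of Sp factors, which do not overlap each other. The windows of 3 genes are shown, those of Cldn3 and Cldn4 because these genes lie side by side on chromosome 5 with no coding gene between them and yet differed in their levels, and that of Epcam because Epcam had the steadiest level of the 9. They are Cldn3 at chr5:134985964-134986213 (plus strand), Cldn4 at chr5:134946935-134947184 (minus strand) and Epcam at chr17:87635729-87635978 (plus strand), each written along the gene, with E-box and GC box letters of either strand in capitals.
Cldn3: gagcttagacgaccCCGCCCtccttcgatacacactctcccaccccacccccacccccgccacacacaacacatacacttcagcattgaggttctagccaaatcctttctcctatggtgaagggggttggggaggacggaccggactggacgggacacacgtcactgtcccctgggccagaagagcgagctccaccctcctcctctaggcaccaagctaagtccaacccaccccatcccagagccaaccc
Cldn4: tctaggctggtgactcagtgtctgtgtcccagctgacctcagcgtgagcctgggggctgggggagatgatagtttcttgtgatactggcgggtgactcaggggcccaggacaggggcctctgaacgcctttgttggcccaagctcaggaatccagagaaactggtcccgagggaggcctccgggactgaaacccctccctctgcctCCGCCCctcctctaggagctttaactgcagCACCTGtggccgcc
Epcam: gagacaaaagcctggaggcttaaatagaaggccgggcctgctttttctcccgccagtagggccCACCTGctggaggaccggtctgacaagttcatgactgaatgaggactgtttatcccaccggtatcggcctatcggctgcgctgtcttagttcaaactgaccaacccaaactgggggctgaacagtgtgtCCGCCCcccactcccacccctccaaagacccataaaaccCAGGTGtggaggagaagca
The Cldn3 window had no E-box and 1 GC box, the Cldn4 window had 1 of each with the E-box starting 14 bases before the start site, and the Epcam window had 2 E-boxes, at 187 and 19 bases, and 1 GC box. Of the other windows, that of Cldn6 held 1 E-box and 2 GC boxes, and it runs past the gene start given below. For Cldn7, 1 window held 2 E-boxes and 1 GC box but lies inside the gene as positioned below. The second window of Cldn7, just upstream of the gene start given below, held neither. Of all 32851 windows in the table, 17.2% held the E-box letters and 32.7% those of the GC box. The letters AACCNGTT (N is any base) of grainyhead factors and TATAAA of the TATA box were searched too. None of the 6 windows held either, and 1.79% and 12.4% of all windows did. These are matches of letters and not measured binding sites.

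Across the 7 libraries the members moved by very different amounts. Epcam stayed within 1.98-fold between its lowest and highest library, and Cdh1 within 3.76-fold. Cdh3 spanned 7.9-fold, Cldn3 17.2-fold and Cldn4 19.1-fold. The widest spans were those of Cdh11 at 42.2-fold, Cldn7 at 52.4-fold, Cdh2 at 56.4-fold and Cldn6 at 61.6-fold. Of the 17733 genes that reached a TPM of 1 in some library, 98.1% had a narrower range of log2(TPM + 1) than Cldn6, 61.7% a narrower range than Cdh1, and only 21.7% a narrower range than Epcam. The set thus held 2 genes at a high level in all libraries, Cdh1 and Epcam, of which only Epcam varied less than most genes, beside genes that were low in some libraries and abundant in others.

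**Figure D1:**
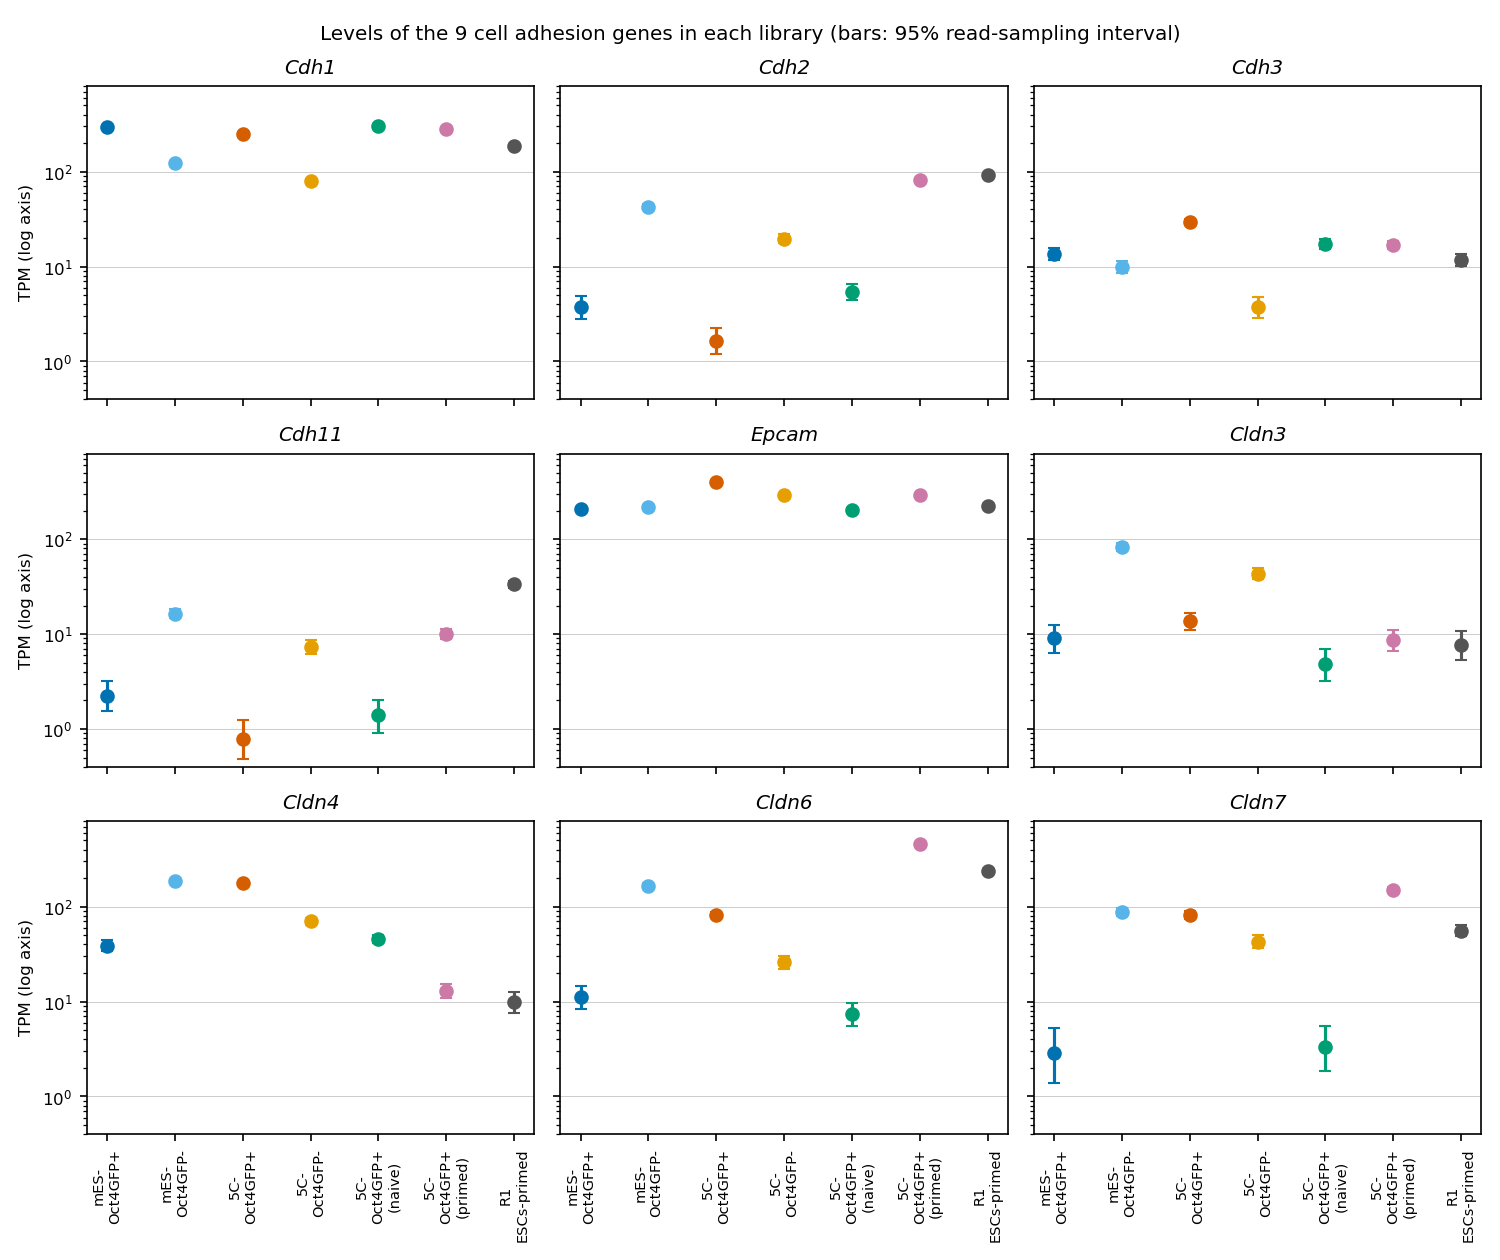
TPM (log axis) of each of the 9 genes, 1 panel per gene, in the 7 libraries along the horizontal axis, with 95% read-sampling intervals as bars. Cdh1 and Epcam were at 80.33 TPM or more in all 7 libraries, whereas Cdh2, Cldn6 and Cldn7 were low in mES-Oct4GFP+ and 5C-Oct4GFP+ (naive) and high in 5C-Oct4GFP+ (primed).

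Cdh1 (ENSMUSG00000000303, chr8:106603351-106670246 of GRCm38, plus strand) encodes E-cadherin, the cadherin of the epithelial adherens junction. Its level was 294.61 TPM in mES-Oct4GFP+ and 123.64 in mES-Oct4GFP-, and the 5C medium gave 249.05 with the reporter on and 80.33 with it off. It was 301.93 TPM in 5C-Oct4GFP+ (naive) and 283.66 in 5C-Oct4GFP+ (primed), while R1 ESCs-primed had 185.06. Cdh1 was therefore well above 0 everywhere, lowest in both Oct4GFP- libraries, and highest in 5C-Oct4GFP+ (naive) and mES-Oct4GFP+, which did not differ beyond read sampling (ratio 1.02, 95% interval 0.985 to 1.07). All other neighbours in the order of levels differed by more than read sampling. Cdh1 RNA was present in both Oct4GFP- libraries: with 2377 reads in mES-Oct4GFP- and 1494 in 5C-Oct4GFP-, Cdh1 was the most abundant classical cadherin of both. In bulk RNA, fewer Cdh1-positive cells in the fraction and less Cdh1 RNA per cell cannot be told apart.

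Cdh2 (ENSMUSG00000024304, chr18:16588877-16809246, minus strand) encodes N-cadherin. It had 3.77 TPM in mES-Oct4GFP+, only 1.65 in 5C-Oct4GFP+ and again 5.38 in 5C-Oct4GFP+ (naive), where it rested on 52, 42 and 102 reads. It had 42.42 TPM in mES-Oct4GFP- and 19.62 in 5C-Oct4GFP-, and reached 81.72 in 5C-Oct4GFP+ (primed) and in the primed R1 ESCs 93.09. The libraries thus fell into a low group of 3 and a high group of 4, and all 6 steps in the order of levels were larger than read sampling. Both primed libraries held more Cdh2 than either Oct4GFP- fraction while keeping Cdh1 high, and whether the same cells held both cannot be told from bulk RNA. An antisense gene, Gm15485, overlaps Cdh2, and since the library kit does not mark the strand its reads cannot be told apart from those of Cdh2.

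Within a library, the ratio of Cdh1 to Cdh2 does not depend on how libraries are scaled. It was 151 in 5C-Oct4GFP+ (95% interval 111 to 210), 78.1 in mES-Oct4GFP+ (59.4 to 105) and 56.1 in 5C-Oct4GFP+ (naive) (46.1 to 68.9). In the other libraries it was far smaller, at 4.09 in 5C-Oct4GFP- (3.64 to 4.61), 3.47 in 5C-Oct4GFP+ (primed) (3.31 to 3.64), 2.91 in mES-Oct4GFP- (2.69 to 3.16) and 1.99 in R1 ESCs-primed (1.87 to 2.12). Cdh1 RNA exceeded Cdh2 RNA in all 7. A ratio near that of 5C-Oct4GFP+ (primed) was thus reached in 5C-Oct4GFP- by a different route, with Cdh1 at 80.33 and Cdh2 at 19.62 TPM in place of 283.66 and 81.72.

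**Figure D2:**
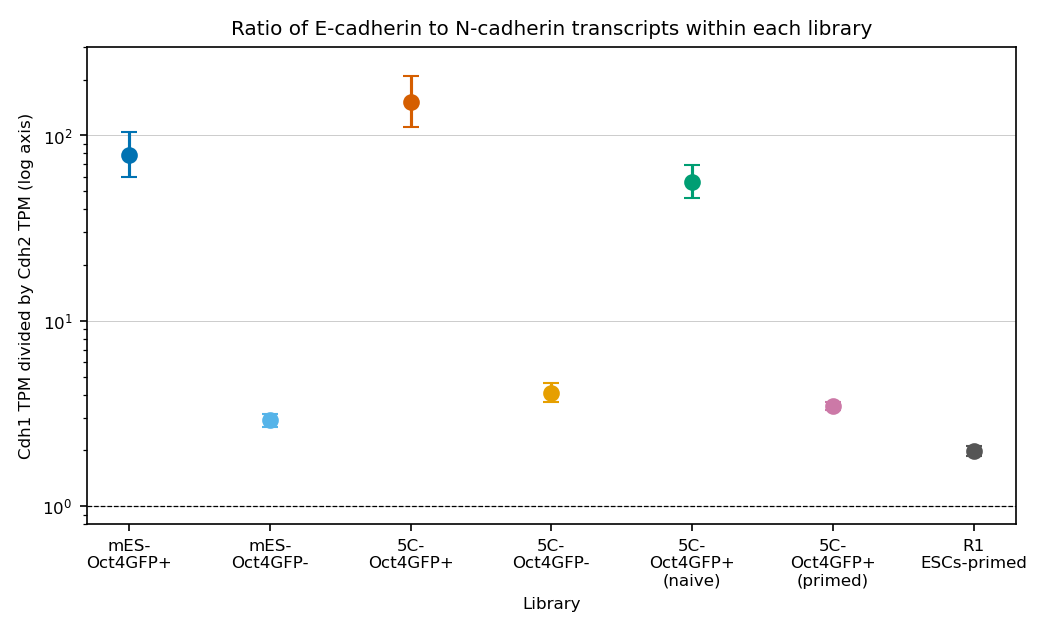
Cdh1 TPM divided by Cdh2 TPM (log axis) in each of the 7 libraries, with exact 95% read-sampling intervals and a dashed line at a ratio of 1. The ratio lies between 56.1 and 151 in 3 libraries and between 1.99 and 4.09 in the other 4.

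Cdh3 (ENSMUSG00000061048, chr8:106510891-106557297, plus strand) encodes P-cadherin, a cadherin of basal epithelium and placenta. The gene lies 46.1 kb before Cdh1 on the same strand. Its level was 29.37 TPM in 5C-Oct4GFP+, 17.37 in 5C-Oct4GFP+ (naive), 16.87 in 5C-Oct4GFP+ (primed), 13.48 in mES-Oct4GFP+, 11.73 in R1 ESCs-primed, 9.94 in mES-Oct4GFP- and 3.72 in 5C-Oct4GFP-. The highest and the lowest library were therefore both from 5C medium. Between these ends, 3 of the steps in the order were within read sampling, namely naive against primed, mES-Oct4GFP+ against R1 ESCs-primed, and R1 ESCs-primed against mES-Oct4GFP-. Cdh1 and Cdh3 were the most alike of the 36 pairs of members, with a root mean square difference of 0.4 between their mean-centred log2(TPM + 1) values over the 7 libraries.

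Cdh11 (ENSMUSG00000031673, chr8:102632095-102785642, minus strand) encodes OB-cadherin, found in mesenchyme and bone-forming cells. Its level was 2.25 TPM in mES-Oct4GFP+, as low as 0.79 in 5C-Oct4GFP+ and 1.4 in 5C-Oct4GFP+ (naive). Neighbours among these 3 values were within read sampling, and the outer pair differed by more than that (ratio 0.351, 95% interval 0.191 to 0.653). It was 16.37 TPM in mES-Oct4GFP- and 7.37 in 5C-Oct4GFP-, and 9.96 in 5C-Oct4GFP+ (primed), with 33.31 in R1 ESCs-primed. The same 3 libraries as for Cdh2 were low. The primed libraries, less than 2-fold apart for Cdh2, were farther apart for Cdh11, at 3.34 times as much in R1 ESCs-primed as in 5C-Oct4GFP+ (primed) (95% interval 2.87 to 3.89). The gene is overlapped by 4 short transcripts on the same strand, and its estimated reads were not whole numbers, so some were shared out between genes.

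Over all 18 classical cadherins, the 4 members held between 72.4% (5C-Oct4GFP-) and 96.3% (5C-Oct4GFP+ (naive)) of the summed TPM. Cdh1 alone was 89.5% (95% interval 88.5 to 90.4) of it in mES-Oct4GFP+, 89.2% (88.4 to 89.9) in 5C-Oct4GFP+ (naive) and 83.2% (82.3 to 84) in 5C-Oct4GFP+. Its share was 66.1% (65.2 to 67) in 5C-Oct4GFP+ (primed), 55.4% (53.9 to 57) in mES-Oct4GFP-, 52.4% (50.5 to 54.3) in 5C-Oct4GFP- and 50.7% (49.4 to 52) in R1 ESCs-primed. The second cadherin was Cdh3 in mES-Oct4GFP+, 5C-Oct4GFP+ and 5C-Oct4GFP+ (naive), and Cdh2 in the other 4. Of the 14 classical cadherins that are not members, Cdh24 was the highest with 15.44 TPM in 5C-Oct4GFP+ (primed), followed by Cdh4 with 10.99 TPM in 5C-Oct4GFP-.

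Epcam (ENSMUSG00000045394, chr17:87635979-87651129, plus strand) is the epithelial cell adhesion molecule, also used to sort pluripotent cells. It had 404.15 TPM in 5C-Oct4GFP+, 295.46 in 5C-Oct4GFP+ (primed), 294.09 in 5C-Oct4GFP-, 224.15 in R1 ESCs-primed, 218.14 in mES-Oct4GFP-, 207.51 in mES-Oct4GFP+ and 203.76 in 5C-Oct4GFP+ (naive). The 4 lowest libraries formed an order in which no neighbours differed beyond read sampling, and neither did 5C-Oct4GFP- and 5C-Oct4GFP+ (primed). Epcam was the most abundant of the 9 genes in mES-Oct4GFP-, 5C-Oct4GFP+ and 5C-Oct4GFP-. Unlike Cdh1, it was within read sampling between the fractions of mES medium (Oct4GFP+ to Oct4GFP- ratio 0.951, 95% interval 0.887 to 1.02). The direction of that small difference turned when FPKM was used in place of TPM.

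Genes of the membrane protease system that cleaves Epcam were measured too. Spint2, an inhibitor of these proteases, had its highest level, 357.68 TPM, in 5C-Oct4GFP+, the library in which Epcam was also highest. Spint1, the related inhibitor, ranged from 42.44 TPM in R1 ESCs-primed to 152.65 TPM in 5C-Oct4GFP+ (naive). Prss8, a membrane protease of this system, had 27.26 TPM in 5C-Oct4GFP+ (primed) and 27 TPM in 5C-Oct4GFP+, but 2.2 TPM in mES-Oct4GFP+ and 1.79 TPM in 5C-Oct4GFP+ (naive).

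Cldn3 (ENSMUSG00000070473, chr5:134986214-134987472, plus strand) and Cldn4 (ENSMUSG00000047501, chr5:134945119-134946934, minus strand) are sealing claudins of simple epithelia, and the genes lie 39.3 kb apart. Cldn3 had 82.77 TPM in mES-Oct4GFP- and 43.27 in 5C-Oct4GFP-, against 9.12 in mES-Oct4GFP+ and 13.59 in 5C-Oct4GFP+, 4.82 in the naive and 8.58 in the primed conversion, and 7.67 in R1 ESCs-primed. Cldn3 was thus a gene of the Oct4GFP- fractions. Neighbours among its 4 lowest libraries, with between 27 and 64 reads each, were within read sampling, but 5C-Oct4GFP+ (naive) was below mES-Oct4GFP+ by more than that (ratio 0.529, 95% interval 0.309 to 0.895). The antisense gene Wbscr25 overlaps Cldn3, and reads of the 2 strands cannot be told apart.

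Cldn4 had its highest levels in mES-Oct4GFP- with 188.29 TPM and in 5C-Oct4GFP+ with 177.3 TPM, which were within read sampling of each other (ratio 1.06, 95% interval 0.99 to 1.14). It had 70.18 TPM in 5C-Oct4GFP-, 45.49 in 5C-Oct4GFP+ (naive), 38.93 in mES-Oct4GFP+, 12.91 in 5C-Oct4GFP+ (primed) and, lowest, 9.88 in R1 ESCs-primed. The 2 primed libraries were lowest and were within read sampling of each other, as were the naive and the mES-Oct4GFP+ library. Cldn4 and Cldn3 therefore parted in 5C-Oct4GFP+, where the level of Cldn4 was near its maximum and that of Cldn3 was 13.59 TPM.

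Cldn6 (ENSMUSG00000023906, chr17:23679249-23682446, plus strand) is a claudin of embryonic epithelia and pluripotent cells. Its level was 455.52 TPM in 5C-Oct4GFP+ (primed), the highest value of any member in any library, and 235.86 TPM in R1 ESCs-primed. It was 165.63 TPM in mES-Oct4GFP-, then 82.16 in 5C-Oct4GFP+ and 25.84 in 5C-Oct4GFP-, and only 11.11 in mES-Oct4GFP+ and 7.39 in 5C-Oct4GFP+ (naive). All 6 steps in the order were larger than read sampling. Cldn9, a claudin of the inner ear and other epithelia whose gene lies 137 bases from Cldn6, had 10.49 TPM in mES-Oct4GFP- and 4.3 TPM in 5C-Oct4GFP-, but 0.58 TPM in 5C-Oct4GFP+ (primed), where Cldn6 peaked.

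Cldn7 (ENSMUSG00000018569, chr11:69964779-69967885, plus strand) encodes the claudin that Epcam binds. It had 151.3 TPM in 5C-Oct4GFP+ (primed), 87.93 in mES-Oct4GFP-, 81.86 in 5C-Oct4GFP+, 56.09 in R1 ESCs-primed and 42.81 in 5C-Oct4GFP-. It had 3.32 TPM in 5C-Oct4GFP+ (naive) and 2.89 in mES-Oct4GFP+, from 15 and 10 reads. Like Cldn6, Cldn7 was lowest in these 2 libraries, and mES-Oct4GFP- and 5C-Oct4GFP+ were within read sampling of each other (ratio 1.07, 95% interval 0.929 to 1.24). Epcam RNA, in contrast, was at 207.51 and 203.76 TPM in the 2 libraries in which Cldn7 had 10 and 15 reads.

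The summed TPM of all 23 claudins came to 81.78 in mES-Oct4GFP+ and to 72.47 in 5C-Oct4GFP+ (naive), against 677.2 in mES-Oct4GFP-, 659 in 5C-Oct4GFP+ (primed), 380.1 in 5C-Oct4GFP+, 337.8 in R1 ESCs-primed and 247.4 in 5C-Oct4GFP-. The 4 member claudins made up between 73.6% and 95.3% of it. Which claudin led differed between libraries. Cldn4 was first in all 4 sorted fractions and in the naive library, with 47.6% (95% interval 43.1 to 52.1) in mES-Oct4GFP+, 62.8% (58.9 to 66.5) in 5C-Oct4GFP+ (naive) and 46.7% (44.9 to 48.4) in 5C-Oct4GFP+. In both primed libraries Cldn6 was first, with 69.1% (67.9 to 70.4) in 5C-Oct4GFP+ (primed) and 69.8% (67.7 to 71.8) in R1 ESCs-primed. The share of Cldn7, the second claudin of both, differed between them, at 23% (21.7 to 24.3) in 5C-Oct4GFP+ (primed) and 16.6% (14.6 to 18.7) in R1 ESCs-primed.

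**Figure D3:**
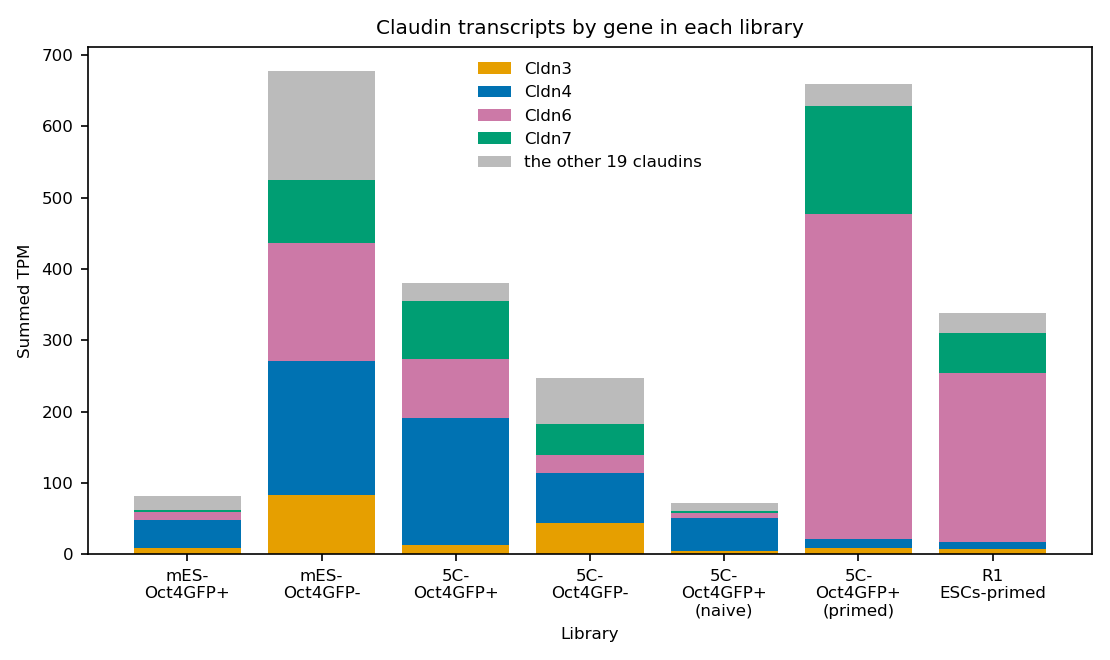
Summed TPM of the 23 claudins in each library, stacked by gene, with the 19 claudins that are not members in grey. The columns reach 677.2 in mES-Oct4GFP- and 659 in 5C-Oct4GFP+ (primed) but only 81.78 in mES-Oct4GFP+ and 72.47 in 5C-Oct4GFP+ (naive), and Cldn6 fills most of both primed columns.

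Among the claudins that are not members, Cldn11, a claudin of myelin and testis, was the highest with 81.61 TPM in mES-Oct4GFP- and 24.38 TPM in 5C-Oct4GFP-. It was 4.58 TPM in 5C-Oct4GFP+ and at most 0.33 TPM in the other 4 libraries. Cldn12, which was detected in every library, ranged from 8.49 TPM in 5C-Oct4GFP+ (naive) to 32.72 TPM in mES-Oct4GFP-.

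The first comparison was between the sorted fractions of mES medium. In mES-Oct4GFP+ against mES-Oct4GFP- cells, 1 of the 9 members was at least 2-fold higher, where 17.9% of the 16294 genes tested were, and 6 were at least 2-fold lower, where 28.8% were. The higher gene was Cdh1, at 2.38 times (95% interval 2.27 to 2.51). The lower genes were the mesenchymal cadherins Cdh2 (ratio 0.0889, 0.0658 to 0.118) and Cdh11 (ratio 0.137, 0.0917 to 0.199) and all 4 claudins, from Cldn4 (ratio 0.207, 0.179 to 0.238) to Cldn7 (ratio 0.0329, 0.0156 to 0.0611). The cells with the reporter on thus had more E-cadherin RNA but less RNA of every member claudin than the cells with the reporter off. The median log2 difference was -2.42 over the members and -0.15 over all genes tested.

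In 5C medium the same comparison gave another picture for Cldn4, Cldn6 and Cldn7, but not for Cldn3. In 5C-Oct4GFP+ against 5C-Oct4GFP- cells, 4 members were at least 2-fold higher, where 8.45% of genes were, and 3 were at least 2-fold lower, where 22.6% were. The higher genes were Cdh1 (ratio 3.1, 95% interval 2.93 to 3.28), Cdh3 (ratio 7.9, 6.07 to 10.4), Cldn4 (ratio 2.53, 2.29 to 2.79) and Cldn6 (ratio 3.18, 2.67 to 3.81). The lower genes were Cdh2 (ratio 0.0841, 0.0596 to 0.116), Cdh11 (ratio 0.107, 0.0637 to 0.178) and Cldn3 (ratio 0.314, 0.243 to 0.402). Cldn7 was 1.91 times as high (1.6 to 2.3), just under the threshold. Relative to the median of all genes, which was -0.25 here, Cldn7 was past 2-fold as well, so that 5 members were higher. Of the 19 claudins that are not members, 9 passed the filter on low values, with 0 higher and 4 lower (median -0.85).

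The cadherins thus differed between the fractions in the same direction in both media, and so did Cldn3, whereas Cldn4, Cldn6 and Cldn7 were lower with the reporter on in mES medium and higher with it on in 5C medium. On the log2(TPM + 1) scale the difference between the media in this contrast was 3.57 for Cldn4, with a read-sampling half-width of 0.25, 5.41 for Cldn6 (0.47) and 5.43 for Cldn7 (0.92). It was also larger than read sampling for Cdh3 at 2.28 (0.48), Cldn3 at 1.45 (0.6), Epcam at 0.53 (0.12) and Cdh1 at 0.37 (0.11). For Cdh2 it was 0.23 (0.61) and for Cdh11 0.19 (0.87), within read sampling. The half-widths are those of log2 ratios without the added 1, so for genes with low levels they are not on the scale of the differences. With 1 library a group the difference between media could not be tested against the spread between cultures.

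**Figure D4:**
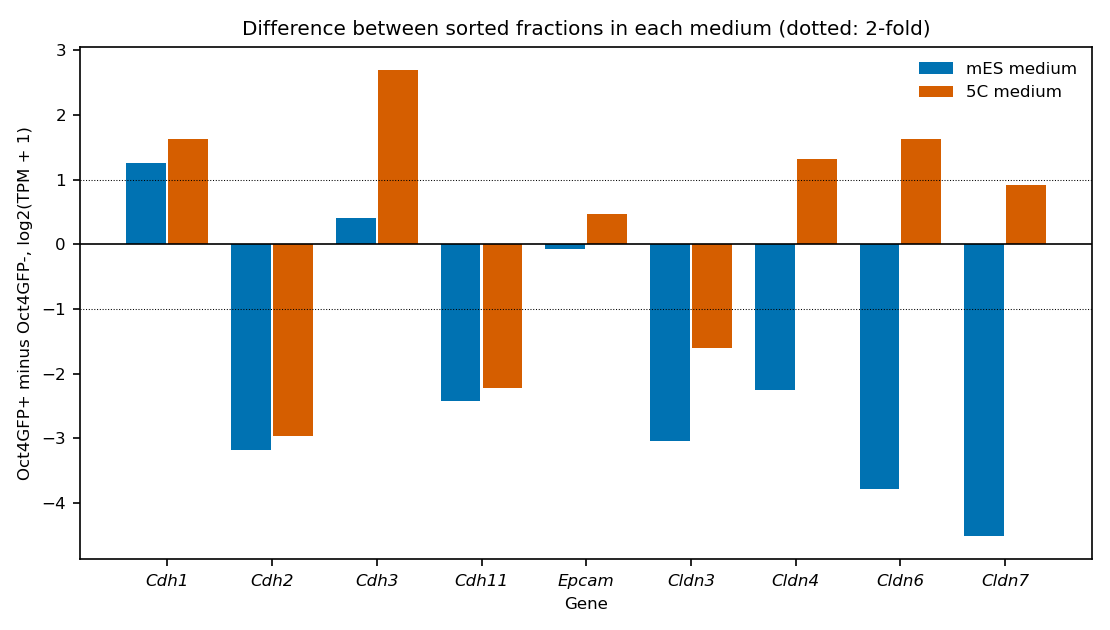
Oct4GFP+ minus Oct4GFP- in log2(TPM + 1) for each member, in mES medium (blue) and 5C medium (orange), 1 library per fraction, with dotted lines at 2-fold. The bars of Cdh2 and Cdh11 are alike in both media, while those of Cldn4, Cldn6 and Cldn7 point down in mES medium and up in 5C medium.

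Comparing media within a sorted fraction uses the same 4 libraries again, so its values are not independent of those of the fractions. Among cells with the reporter on, 4 members stood at least 2-fold above mES-Oct4GFP+ in the 5C-Oct4GFP+ library (background 13.7%) and 0 were lower (background 13.5%). These were Cldn7 at 28.3 times (95% interval 15.3 to 59.6), Cldn6 at 7.4 times (5.59 to 9.98), Cldn4 at 4.55 times (3.96 to 5.26) and Cdh3 at 2.18 times (1.84 to 2.59). Epcam was 1.95 times as high (1.83 to 2.07), and was past 2-fold relative to the median of all genes. Cdh2 had 0.438 times the TPM (0.284 to 0.67) and Cdh11 0.351 times (0.191 to 0.653), and both were under the threshold on the log2(TPM + 1) scale because their levels were low. With a pseudocount of 0.1 in place of 1, 2 members were lower (17.1% of all genes), and with CPM 1 was.

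Among cells with the reporter off, 0 members stood above mES-Oct4GFP- in the 5C-Oct4GFP- library (background 9.68%) and 6 were at least 2-fold lower (background 10.1%). Cldn6 had the lowest ratio (0.156, 95% interval 0.131 to 0.185), followed by Cldn4 (0.373, 0.337 to 0.412), Cdh3 (0.374, 0.276 to 0.504), Cdh11 (0.45, 0.363 to 0.554), Cdh2 (0.463, 0.406 to 0.525) and Cldn7 (0.487, 0.403 to 0.586). Cdh1 (ratio 0.65) and Cldn3 (ratio 0.523) were lower by less, and Epcam was 1.35 times as high (1.27 to 1.43). All member cadherins, epithelial and mesenchymal, were thus lower in 5C-Oct4GFP- cells, Cdh1 by less than 2-fold. This did not extend to the family. Of the 14 classical cadherins that are not members, 10 passed the filter on low values, with 3 higher and 2 lower (median 0.83). Cldn7, Cdh2 and Cdh11 lay between 2.05-fold and 2.22-fold, near the threshold.

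5C-Oct4GFP+ cells are the common origin of the naive and the primed library. They were sorted on day 15, whereas both converted libraries came after 20 passages. Against 5C-Oct4GFP+, the medium therefore cannot be told apart from the passages and the time in culture. After culture in naive medium, 1 member was at least 2-fold higher than in 5C-Oct4GFP+ (background 10%) and 4 were at least 2-fold lower (background 17.5%). All 4 claudins were lower, Cldn7 with a ratio of 0.0406 (95% interval 0.0225 to 0.0677), Cldn6 with 0.0899 (0.0661 to 0.12), Cldn4 with 0.257 (0.229 to 0.287) and Cldn3 with 0.355 (0.222 to 0.55). The higher gene was Cdh2, at 3.26 times (2.26 to 4.79) but still at 5.38 TPM. Epcam had 0.504 times the TPM (0.478 to 0.532) and Cdh1 1.21 times (1.17 to 1.26). The naive library thus had low claudin RNA with E-cadherin RNA kept.

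After culture in primed medium, 3 members were at least 2-fold higher than in 5C-Oct4GFP+ (background 13.7%) and 1 was at least 2-fold lower (background 16.1%). Cdh2 was 49.5 times as high (95% interval 36.5 to 68.9), Cdh11 12.6 times (7.79 to 21) and Cldn6 5.54 times (5.11 to 6.02), and Cldn4 had 0.0728 times the TPM (0.0609 to 0.0865). Cdh1 differed little, at 1.14 times (1.1 to 1.18). In the primed library N-cadherin RNA was therefore high beside an E-cadherin level near that of the cells of origin, and Cldn6 had taken the place of Cldn4 as the leading claudin.

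**Figure D5:**
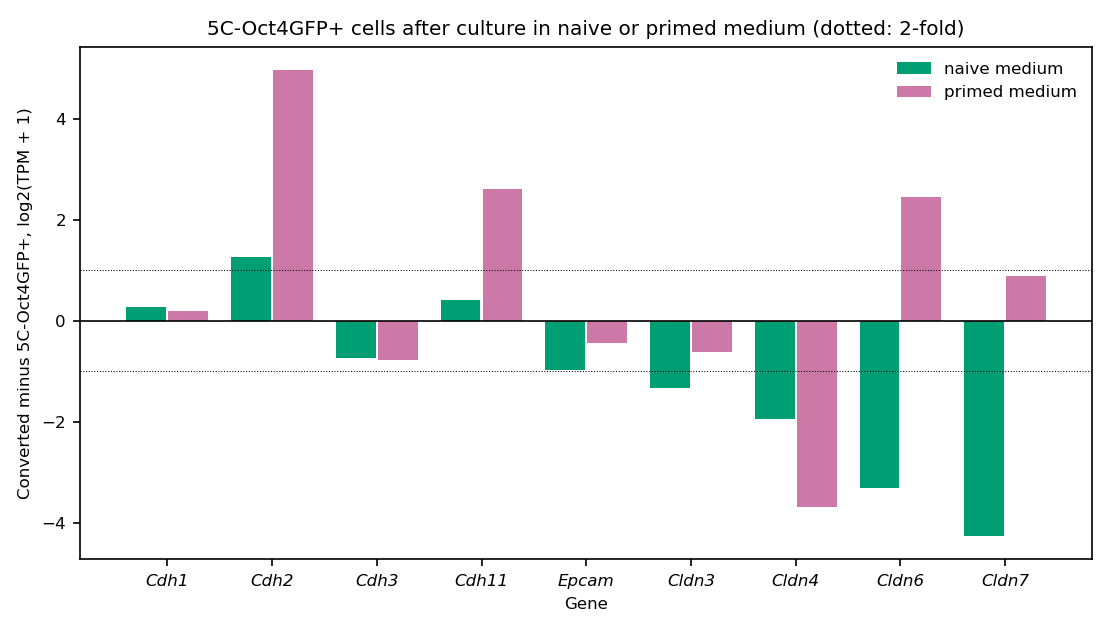
Converted minus 5C-Oct4GFP+ in log2(TPM + 1) for each member after 20 passages in naive (green) or primed (pink) medium, 1 library each, with dotted lines at 2-fold. Cdh2 is higher after both but mostly after primed medium, Cldn4 is lower after both, and Cldn6 and Cldn7 point in opposite directions.

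Set directly against each other, 5C-Oct4GFP+ (primed) had 4 members at least 2-fold higher than 5C-Oct4GFP+ (naive) (background 22.2%) and 1 at least 2-fold lower (background 16.7%). Cldn6 was 61.6 times as high (95% interval 46.7 to 83.2), Cldn7 45.6 times (27.5 to 81.8), Cdh2 15.2 times (12.4 to 18.7) and Cdh11 7.11 times (4.86 to 11.2). Cldn4 was lower, with a ratio of 0.284 (0.232 to 0.345). Cdh3 did not differ beyond read sampling (ratio 0.971, 0.837 to 1.13), and Cdh1 had a ratio of 0.939 (0.909 to 0.972).

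The 2 primed libraries, which came from different cells, were much closer. In 5C-Oct4GFP+ (primed) against R1 ESCs-primed, 1 member was at least 2-fold higher (background 2.3%), Cldn7 at 2.7 times (95% interval 2.32 to 3.15), and 1 was at least 2-fold lower (background 5.09%), Cdh11 with a ratio of 0.299 (0.257 to 0.348). Cldn6 was 1.93 times as high (1.81 to 2.06) and Cdh1 1.53 times (1.47 to 1.6), while Cldn3 and Cldn4 were within read sampling. The sum of 10 fibroblast markers was 1174 TPM in R1 ESCs-primed and 603.4 TPM in 5C-Oct4GFP+ (primed), higher in the library with the higher Cdh11. The part of remaining feeder cells in this was not tested.

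5C-Oct4GFP+ (naive) and mES-Oct4GFP+ differed least. No member was at least 2-fold higher (background 2.49%) and none was at least 2-fold lower (background 6.27%). For Cdh1, Cdh11, Epcam, Cldn4 and Cldn7 the intervals of the ratio included 1, with Cldn7 the least certain (ratio 1.15, 95% interval 0.483 to 2.86). Cldn3 had the largest difference, with a ratio of 0.529 (0.309 to 0.895). It rested on 27 and 36 reads.

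The partners of these proteins were described by lists of genes, whose counts stand beside the medians over all genes. In mES-Oct4GFP+ against mES-Oct4GFP- cells, 0 of 10 adherens junction partners were higher and 6 lower (median -1.02), 1 of 15 tight junction scaffolds and partners was higher and 10 lower (median -1.52), and 0 of 8 desmosome genes were higher and 5 lower (median -3.88). Over all genes tested, 17.9% were higher and 28.8% lower (median -0.15). In these 3 lists the share of lower genes was thus above that over all genes, while Cdh1 was higher. Jup (plakoglobin), the catenin shared by adherens junctions and desmosomes, had 52.76 TPM in mES-Oct4GFP+ and 357.08 TPM in mES-Oct4GFP-. Perp, a desmosome membrane protein, had 11.99 and 475.54 TPM, and Pkp1 (plakophilin), a desmosome plaque protein, 0.95 and 132.71 TPM. Nectin4, an adhesion molecule of the immunoglobulin family, had 0.67 and 14.18 TPM, and Crb3, a polarity protein at the tight junction, 5 and 39.14 TPM. F11r (JAM-A) had its highest level, 144.11 TPM, in mES-Oct4GFP-. Of 12 regulators of Cdh1 transcription or of epithelial splicing, a list that pools repressors and activators of Cdh1, 0 were higher and 7 lower (median -1.07). Its 2 largest differences were those of Esrp1 (-4.79), an epithelial splicing factor, and Twist1 (-4.05), a mesenchymal factor. The pooled count therefore does not describe a single kind of regulator. Of the cadherins and claudins that are not members, 9 of 14 and 8 of 19 passed the filter on low values, with 1 and 0 higher and 5 and 6 lower. Among these cadherins the differences were largest for Cdh5 (VE-cadherin, of endothelium), listed at 0 in mES-Oct4GFP+ and at 7.07 TPM in mES-Oct4GFP-, and for Cdh6 (K-cadherin), with 1.41 and 10.45 TPM.

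In 5C-Oct4GFP+ against 5C-Oct4GFP- cells the medians of the same lists were close to that of all genes. Of 10 adherens junction partners 0 were higher and 1 lower (median -0.05), of 15 tight junction genes 3 were higher and 2 lower (median -0.18), and of 8 desmosome genes 1 was higher and 3 lower (median -0.31), while 8.45% of all genes tested were higher and 22.6% lower (median -0.25). The single lower adherens junction partner was Vcl (vinculin), at 47.69 TPM in 5C-Oct4GFP+ against 97.93 TPM in 5C-Oct4GFP-. Nectin2, which binds other nectins, had the next largest difference in that list, with 62.24 and 38.23 TPM, under 2-fold. Dsp (desmoplakin), which ties desmosomes to keratin, had 7.21 and 30.78 TPM, and Jam3 8.41 and 40.19 TPM. Jam2, a junctional adhesion molecule, was higher with the reporter on in both media, at 205.22 against 22.78 TPM in 5C medium and 254.99 against 29.45 TPM in mES medium. It had 1.36 TPM in 5C-Oct4GFP+ (primed) and 3.45 TPM in R1 ESCs-primed. Its log2 difference of -6.45 (5C-Oct4GFP+ (primed) minus 5C-Oct4GFP+) was the largest of the tight junction list. Ctnnb1 (β-catenin), the highest of the adherens junction partners, ranged only from 483.23 TPM in 5C-Oct4GFP+ to 617.93 TPM in 5C-Oct4GFP+ (primed).

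Across the conversions, 6 of 10 adherens junction partners and 8 of 15 tight junction genes were at least 2-fold lower in 5C-Oct4GFP+ (naive) than in 5C-Oct4GFP+, with 0 and 1 higher (medians -1.1 and -1.37). Over all genes tested 17.5% were lower and 10% higher (median -0.1). Cgn (cingulin), a cytoplasmic tight junction protein, had 1.89 TPM in the naive library and 26.28 TPM in 5C-Oct4GFP+, and Tjp3 (ZO-3), a scaffold protein, 3.37 and 34.84 TPM. Nectin1, which binds other nectins across the cell border, had 4.89 and 16.63 TPM, and Afdn (afadin), which links nectins to actin, 61.39 and 168.97 TPM. In 5C-Oct4GFP+ (primed) against 5C-Oct4GFP+, 0 and 4 were higher and 2 and 2 lower (medians -0.1 and 0.1), where 13.7% of all genes tested were higher and 16.1% lower (median 0.06). Marveld2 (tricellulin), which seals corners where cells meet, had 26.93 TPM in the primed library and 4.32 TPM in 5C-Oct4GFP+. The lower adherens junction partners were Jup, with 76.14 against 223.76 TPM, and Nectin4, with 0.62 against 2.96 TPM. Against the naive library, 8 of 15 tight junction genes were higher in 5C-Oct4GFP+ (primed) and 1 was lower (median 1.28), the lower gene being Jam2. Over all genes tested, 22.2% were higher and 16.7% lower (median 0.14).

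Regulators known to act on Cdh1 transcription or on epithelial splicing were a list of 12. In 5C-Oct4GFP+ against mES-Oct4GFP+, 9 of them passed the filter on low values, of which 3 were at least 2-fold higher and 1 lower (median 0.72), where 13.7% of all genes tested were higher and 13.5% lower (median -0.06). Esrp1, an epithelial splicing factor, had 88.54 TPM in 5C-Oct4GFP+ against 0.82 TPM in mES-Oct4GFP+, and with 0.92 TPM in 5C-Oct4GFP+ (naive) and 86 TPM in 5C-Oct4GFP+ (primed) it was low where Cldn7 was low. Grhl2, a grainyhead factor that activates Cdh1 and claudin genes in epithelia, had its highest level in 5C-Oct4GFP+ with 43.7 TPM, against 5.08 in mES-Oct4GFP+, only 7.14 in 5C-Oct4GFP- and 11.94 for 5C-Oct4GFP+ (primed). Zeb2, a repressor of Cdh1, had 19.47 TPM in 5C-Oct4GFP- compared with 11.33 TPM in mES-Oct4GFP-, the 2 libraries with the lowest Cdh1. That difference was under 2-fold, and not every repressor or mesenchymal factor shared its direction. Twist2, another mesenchymal factor, had a log2 difference of -2.67 (5C-Oct4GFP- minus mES-Oct4GFP-). The next largest difference of the list was that of Ovol1, at -1.7. Between these libraries, 9.68% of all genes tested were at least 2-fold higher and 10.1% lower. Of the 12 regulators, 0 passed 2-fold upwards and 3 passed it downwards. The part of any of them in the level of Cdh1 was not tested. Twist1, a mesenchymal factor, had 31.73 TPM in mES-Oct4GFP-, 23.76 in R1 ESCs-primed, 13.97 in 5C-Oct4GFP- and 7.73 in 5C-Oct4GFP+ (primed), and had at most 2.72 TPM in the 3 libraries with low Cdh2.

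Other markers moved with these genes, and their part in the results was not tested. The 10 fibroblast markers summed to between 2714 and 2732 TPM in the Oct4GFP- libraries, with all 10 at a TPM of at least 1, and to between 344 and 653.4 TPM in mES-Oct4GFP+, 5C-Oct4GFP+ and 5C-Oct4GFP+ (naive), where the low-Cdh2 libraries had 4 to 7 of 10 at that level. Vim (vimentin) made up most of each sum. Without it the sums were 504.7 and 263.2 TPM in the Oct4GFP- libraries of mES and 5C medium, 78.99 in 5C-Oct4GFP+ (primed), 220.7 in R1 ESCs-primed and at most 16.58 TPM in the rest. No marker of this list was at 0 in any library. The 4 keratinised epithelium markers summed to 227.6 TPM in mES-Oct4GFP- and 229.6 TPM in 5C-Oct4GFP-, with Krt14 at 75.35 and 44.83 TPM. They summed to 124.4 TPM in 5C-Oct4GFP+, of which Krt17 was 120.56 TPM, and to between 0.26 and 2.37 TPM in the other 4 libraries, where Krt14 was at 0.

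The labels of the pluripotent libraries could be set against their markers. The 8 pluripotent cell markers, among them Pou5f1 (Oct4) and Sox2, summed to between 2635 and 9447 TPM. Pou5f1 alone was 3640.4 of the 4260 TPM in mES-Oct4GFP- and 1533.95 of the 2635 TPM in 5C-Oct4GFP-. The 4 primed pluripotent cell markers summed to between 571.9 and 683.3 TPM in the primed libraries and between 51.4 and 232.6 TPM in the other 5. Zfp42 and Esrrb, markers of the naive state, had 337.06 and 246.13 TPM in mES-Oct4GFP+, 355.29 and 206.62 TPM in 5C-Oct4GFP+ (naive) and 219.41 and 229.65 TPM in 5C-Oct4GFP+, but 0 and 1 TPM in 5C-Oct4GFP+ (primed). Fgf5, a marker of the primed state, had 174.67 TPM in 5C-Oct4GFP+ (primed) and 139.29 TPM in R1 ESCs-primed, 11.69 TPM in 5C-Oct4GFP+ and 0.12 and 0.09 TPM in mES-Oct4GFP+ and 5C-Oct4GFP+ (naive). The other primed markers did not all follow it. T (brachyury) was also highest in the primed libraries, but Otx2 had 189.42 TPM in 5C-Oct4GFP+, more than the 134.39 TPM of R1 ESCs-primed. Lef1 was lower in 5C-Oct4GFP+ (primed), at 27.45 TPM, and in R1 ESCs-primed, at 35.54 TPM, than in mES-Oct4GFP+ with 43.94 TPM and 5C-Oct4GFP+ (naive) with 45.66 TPM. Nanog was 119.5 TPM in 5C-Oct4GFP- against 17.11 TPM in mES-Oct4GFP-, so the 5C-Oct4GFP- fraction was not free of pluripotency RNA. Zfp42 and Esrrb were far below their Oct4GFP+ levels in both fractions. They had 14.11 and 15.26 TPM in 5C-Oct4GFP- and only 1.31 and 1.26 TPM in mES-Oct4GFP-. Reads of Pou5f1 and Sox2 may include those of the retroviruses, so neither these genes nor the sum of the 8 markers is a check of the labels. The 4 endoderm markers summed to 176.3 TPM in 5C-Oct4GFP+ (primed), 166.8 TPM in R1 ESCs-primed and 69.29 TPM in mES-Oct4GFP-, the 3 libraries with the highest Cldn6, against 1.77 to 13.37 TPM elsewhere, and no marker of this list was at 0. Trophoblast markers summed to between 12.02 and 124.1 TPM, with Cdx2 at 0 in 5C-Oct4GFP+ and Elf5 at 0 in 5C-Oct4GFP+ (naive). The list did not move as one, since Eomes had 81.21 TPM in 5C-Oct4GFP+ (primed) and 114.98 TPM in R1 ESCs-primed but at most 10.34 TPM elsewhere, whereas Tfap2c had 86.89 TPM in mES-Oct4GFP+ and 58.36 TPM in 5C-Oct4GFP+ (naive) but 3.39 and 5.36 TPM in the primed libraries. Cdx2 was also highest in mES-Oct4GFP+ and 5C-Oct4GFP+ (naive), with 10.57 and 16.26 TPM.

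Finally, the genes with the pattern most like each member over the 7 libraries were sought among the 11751 genes that reached a TPM of 10 in some library, by the root mean square difference of mean-centred log2(TPM + 1). With 7 points that share depth and libraries this is a description only. Nearest to Cdh1 were Eif4ebp1 (0.17), Plekhf2 (0.19) and Zswim7 (0.2), and nearest to Epcam were 5430416N02Rik (0.09), Lamtor3 (0.11) and Snapc3 (0.13). Nearest to Cdh3 were BC051077 (0.24), Gm26764 (0.25) and Rbm47 (0.26), and nearest to Cdh2 were Dgkk (0.43), Chst15 (0.49) and Rspo3 (0.49). Nearest to Cdh11 were Gng11 (0.33), Mab21l2 (0.34) and Mum1l1 (0.36). The 2 mesenchymal cadherins thus shared no nearest gene.

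For the claudins, the nearest genes were Kremen1 (0.22), Pdzk1ip1 (0.27) and Retreg1 (0.28) for Cldn3, and B230206L02Rik (0.31), Zbtb32 (0.32) and Smim22 (0.36) for Cldn4. Kremen1, a Wnt inhibitor's receptor, had 60.93 TPM in mES-Oct4GFP- and 32.42 TPM in 5C-Oct4GFP-, and at most 13.01 TPM elsewhere. For Cldn6 the nearest gene was Emb (0.53), which encodes embigin, a cell surface glycoprotein, with 958.31 TPM in 5C-Oct4GFP+ (primed), 658.77 in R1 ESCs-primed, 342.61 in mES-Oct4GFP-, then 158.17 in 5C-Oct4GFP+ and 108.7 in 5C-Oct4GFP-, and with low levels of 45.4 in 5C-Oct4GFP+ (naive) and 28.64 in mES-Oct4GFP+. Flnc (0.68) and Tpm2 (0.72), an actin crosslinker and a tropomyosin, came next. For Cldn7 they were Tmem88 (0.44), Hopx (0.45) and Esrp1 (0.48). Between members the measure was larger, at 0.9 for Cldn6 and Cldn7 and 1.19 for Cldn3 and Cldn4, and it was 0.73 for Cdh2 and Cdh11.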

How the data were processed

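RNA was extracted with TRIzol, made into libraries with the TruSeq RNA kit, which does not mark the strand, and sequenced on an Illumina MiSeq. The submitters' processing notes name Bowtie, RSEM and mm10, and their versions are not given in the sources used here. The authors deposited, for each of 29267 Ensembl genes, the expected count that RSEM estimated (not normalized), the gene's length, and TPM and FPKM values that the authors calculated from it with RSEM. A column of another kind, the deposited length, was used only to describe the genes. Libraries were grouped by their GEO titles. Members, lists and comparisons were chosen with earlier results of these data known.

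TPM was compared as log2(TPM + 1), and a gene was called at 2-fold where its TPM was at least 1 in either library. With 1 library a group no model was fitted. Intervals for ratios and shares are exact Clopper-Pearson intervals of 95% from deposited expected counts rounded to whole numbers. The 9 comparisons share libraries. Named genes were all members, the 2 highest genes of each list and its 2 largest differences in each comparison described, and the 3 genes nearest to each member. Cldn9 was added as the neighbour of Cldn6, and markers are named where they differ. For 1 list, a gene that the rule names and the counts are not reported here. Gene positions came from GENCODE M21 on GRCm38, and 28756 identifiers matched a symbol. Promoter letters came from the RefSeq table of GRCm38.p6. The code was tested on simulated data. Other pseudocounts (0.1 and 5), minimum values (none and 5), a median-of-ratios scaling, FPKM and CPM (depth-scaled read counts) were tried. Tables were handled with pandas 2.3.3 and numpy 2.4.6 under Python 3.11.15, intervals computed with scipy 1.17.1 and plots drawn with matplotlib 3.10.9.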

Additional observations from a re-analysis of the deposited data

Results flagged for a closer look

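Members whose difference between Oct4GFP+ and Oct4GFP- cells had opposite signs in mES and 5C medium stood out. On the log2(TPM + 1) scale, Oct4GFP+ minus Oct4GFP- in 5C medium less the same in mES medium was 5.43 for Cldn7, 5.41 for Cldn6, 3.57 for Cldn4 and 0.53 for Epcam. For Cldn4 and Cldn6 the difference was at least 2-fold in each medium. For Cldn7 it was -4.51 in mES medium and 0.92 in 5C medium. For Epcam it was only -0.07 in mES medium, within read sampling, and 0.05 with FPKM in place of TPM, so its sign there is not settled. With 1 library a group none of these differences was tested. The keratinised epithelium markers, which summed to 227.6 and 229.6 TPM in the Oct4GFP- libraries of mES and 5C medium, were at 0.26 TPM in mES-Oct4GFP+ and 124.4 TPM in 5C-Oct4GFP+, and their part in the claudin levels was not tested.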

How the results depend on the processing

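The count of members past 2-fold was within 1.5 times of the reported one in 61 of 63 alternative settings. With a pseudocount of 5 it was 2 in place of 6 for 5C-Oct4GFP- against mES-Oct4GFP-, and 3 in place of 5 for 5C-Oct4GFP+ (naive) against 5C-Oct4GFP+, since a larger pseudocount lowers every difference of low genes. No called difference changed sign. A median-of-ratios scaling moved the median of all genes by between -0.13 and 0.15 log2 units. It brought Cldn7 to 1.07 in 5C-Oct4GFP+ against 5C-Oct4GFP- and Epcam to 1.01 in 5C-Oct4GFP+ against mES-Oct4GFP+, both past 2-fold. For Epcam in 5C-Oct4GFP+ (naive) against mES-Oct4GFP+ it turned -0.03 to 0.1. For 5C-Oct4GFP+ against mES-Oct4GFP+, 0 members were lower as reported, but 2 with a pseudocount of 0.1 and 1 with CPM. With FPKM, 4 in place of 6 members were lower in 5C-Oct4GFP- against mES-Oct4GFP-.

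With rounded expected counts not divided by length, the Cdh1 to Cdh2 ratio was 3.72 in 5C-Oct4GFP+ (primed). The share of Cdh1 among classical cadherins became 91.3% in mES-Oct4GFP+ and 58.5% in mES-Oct4GFP-, 54.8% in 5C-Oct4GFP-, 90% in the naive and 68.4% in the primed conversion, and 52.7% in R1 ESCs-primed. That of Cldn6 among claudins became 22.4% in mES-Oct4GFP-, 71.8% in the primed conversion and 67.6% in R1 ESCs-primed. With a pseudocount of 5 the difference between media in the Oct4GFP contrast was 1.67 for Cdh3, 4.9 for Cldn6 and 4.42 for Cldn7.

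With 1 library a group, leaving out a replicate was not possible, and the spread between cultures is unknown. No paired analysis was possible because each group has a single library. Depth limits Cldn7 in mES-Oct4GFP+ and 5C-Oct4GFP+ (naive), at 10 and 15 reads, most.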

Other observations

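Cell adhesion genes that were not members showed some further contrasts. Dsg2, a desmosomal cadherin, had 66.1 TPM in mES-Oct4GFP+ and 56.21 TPM in 5C-Oct4GFP+ (naive), against 40 TPM in mES-Oct4GFP- and 22.48 TPM in 5C-Oct4GFP+ (primed), 19 TPM in 5C-Oct4GFP+, 10.04 TPM in R1 ESCs-primed and 9.33 TPM in 5C-Oct4GFP-. Its level was thus highest in the 2 libraries with the lowest summed claudin RNA. Dsc2, the other kind of desmosomal cadherin, was lowest in 5C-Oct4GFP+ (naive) with 0.33 TPM, 5C-Oct4GFP+ with 0.51 TPM and mES-Oct4GFP+ with 0.71 TPM, and reached 19.74 TPM in mES-Oct4GFP- and 9.26 TPM in 5C-Oct4GFP+ (primed). Lsr, which recruits tricellulin to corners between cells, had 129.21 TPM in 5C-Oct4GFP+ (primed) and 117.56 TPM in R1 ESCs-primed, against 8.76 TPM in 5C-Oct4GFP+ (naive) and 14.12 TPM in mES-Oct4GFP+. These genes were chosen after their values were seen.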
